A study of Mus musculus with 64 samples.

Results

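The genes described here are 36 that mouse cells use to divide: the kinases and cyclins of mitotic entry, the proteins of kinetochores, spindle and midzone, the spindle checkpoint, and the proteins that end mitosis. They were taken by symbol from the 38924 genes counted in the study, and each was found in the counts of all 4 progenitor populations. By role they comprised 5 entry genes (Cdk1, Ccnb1, Ccnb2, Plk1, Cdca3), 2 chromosome genes (Mki67, Top2a), 3 genes of the chromosomal passenger complex (Aurkb, Birc5, Cdca8), 7 of the centromere and kinetochore (Cenpa, Cenpe, Cenpf, Nuf2, Ndc80, Spc24, Spc25), 4 of the checkpoint (Bub1, Bub1b, Ttk, Mad2l1), 2 of the anaphase-promoting complex pathway (Cdc20, Ube2c), 8 of the spindle (Aurka, Tpx2, Kif11, Kif2c, Nusap1, Hmmr, Ckap2, Ckap2l) and 5 of cytokinesis (Prc1, Kif20a, Kif23, Anln, Ect2).

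Cyclin B bound to the kinase encoded by Cdk1 starts mitosis, the checkpoint keeps sister chromatids from parting until the kinetochores are attached, and Cdc20 then turns the anaphase-promoting complex on cyclin B. Transcripts of these genes are low in resting and G1 cells and accumulate in G2 and mitosis, so that in a bulk sample their level depends on the share of cells in those phases. Many of their promoters carry a CCAAT box, bound by NF-Y, and the cell cycle genes homology region (CHR), bound by the MuvB core of the DREAM and B-MYB complexes.

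The cells came from fetal livers of C57BL/6 mice that were Smarcd2 -/- (KO), Smarcd2 +/- (HET) or Smarcd2 +/+ (WT). SMARCD2 is a subunit of the BAF chromatin remodelling complex, and the labels do not describe how the allele was made. Livers were taken at 13/14 dpc, except for 1 CMP HET library labelled 14.5 dpc. LSK cells, a gate rich in stem and multipotent cells, were sorted as CD45.2+ Lin- Mac+/low Sca1+ cKit+ and gave 9 KO, 9 HET and 5 WT libraries. Common myeloid progenitors (CMP), granulocyte-macrophage progenitors (GMP) and megakaryocyte-erythroid progenitors (MEP) were sorted from CD45+ Lin- Sca-1- cells by CD34 and CD16/32, with CD177 named as a further marker. There were 4 KO, 7 HET and 3 WT libraries of CMP, 3 KO, 7 HET and 3 WT of GMP, and 4 KO, 7 HET and 3 WT of MEP. LSK libraries of each genotype came from both sexes, and the main fits held no term for sex. No sex was recorded for CMP, GMP or MEP libraries. The labels do not say that each library was a separate fetus, so p-values describe the spread between these libraries.

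The total count of a library was 4327582 to 24069833 reads in LSK (median 7121219), 1577073 to 8092644 in CMP, 1006090 to 6300070 in GMP and 1488328 to 5646315 in MEP. Smarcd2 itself was at most 1.94 CPM (counts scaled to a common library size) in any KO library and at least 49.4 CPM in any WT library. The summed level of granulocyte-macrophage gate genes was 898 to 48396 CPM in GMP (9 genes listed), 54.7 to 527 CPM in MEP (7 of the 9 listed) and 1816 to 5260 CPM in CMP (8 of the 9 listed). Some libraries stood apart. GMP HET 8 had the GMP sum of 898 CPM, below every CMP library and so against its gate label. Its sums of housekeeping genes (845 CPM, GMP median 7848 CPM) and DNA replication genes (1248 CPM, GMP median 6775 CPM) were low too. A poor library thus cannot be told apart from other cells there. CMP HET 8 was low in the mitosis genes. GMP libraries and 2 MEP libraries (HET 8 and KO 15) differed widely in the balance of long against short transcripts, and the 3 GMP KO libraries carried 2.52% to 3.06% spike-in reads, against at most 0.394% in the other GMP libraries. The 3 GMP KO libraries are all the KO libraries of GMP, so no KO comparison there can be made without them.

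Promoter sequences show what the members share beyond their role. RefSeq windows (GRCm38.p6), from 250 bases before to 50 bases after the annotated start, were matched for 32 of the 36 genes, all but Aurkb, Spc24, Tpx2 and Kif20a. The CHR was searched as TTTGAA and the CCAAT box as CCAAT, both on either strand, so that TTCAAA and ATTGG also count, and these matches stand in capitals. The windows of 5 genes are printed 5′ to 3′ along the gene: 3 regulators with both motifs (Cdk1, Plk1, Cdc20), the proliferation marker Mki67, and Ccnb1, which had CCAAT boxes and no CHR match. Their positions are chr10:69352863-69353162 (minus strand), chr7:122159185-122159484 (plus strand), chr4:118437294-118437593 (minus strand), chr7:135716330-135716629 (minus strand) and chr13:100786437-100786736 (minus strand).
Cdk1: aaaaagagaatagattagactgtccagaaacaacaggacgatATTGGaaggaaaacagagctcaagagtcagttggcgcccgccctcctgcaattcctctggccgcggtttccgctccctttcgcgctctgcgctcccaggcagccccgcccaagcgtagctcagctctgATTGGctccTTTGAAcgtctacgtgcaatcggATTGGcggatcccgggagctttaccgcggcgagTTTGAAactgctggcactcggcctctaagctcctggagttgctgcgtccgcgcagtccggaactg
Plk1: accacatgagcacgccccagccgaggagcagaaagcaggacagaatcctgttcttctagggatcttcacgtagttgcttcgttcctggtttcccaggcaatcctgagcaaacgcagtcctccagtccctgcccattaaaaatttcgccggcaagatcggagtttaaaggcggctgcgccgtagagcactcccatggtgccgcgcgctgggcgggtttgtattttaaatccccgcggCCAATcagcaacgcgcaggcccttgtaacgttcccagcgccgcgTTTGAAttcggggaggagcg
Cdc20: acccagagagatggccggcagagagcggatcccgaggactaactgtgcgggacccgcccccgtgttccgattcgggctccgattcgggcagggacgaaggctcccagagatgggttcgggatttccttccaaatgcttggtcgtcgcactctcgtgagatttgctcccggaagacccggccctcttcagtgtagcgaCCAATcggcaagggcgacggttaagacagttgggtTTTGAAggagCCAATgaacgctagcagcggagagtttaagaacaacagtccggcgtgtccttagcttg
Mki67: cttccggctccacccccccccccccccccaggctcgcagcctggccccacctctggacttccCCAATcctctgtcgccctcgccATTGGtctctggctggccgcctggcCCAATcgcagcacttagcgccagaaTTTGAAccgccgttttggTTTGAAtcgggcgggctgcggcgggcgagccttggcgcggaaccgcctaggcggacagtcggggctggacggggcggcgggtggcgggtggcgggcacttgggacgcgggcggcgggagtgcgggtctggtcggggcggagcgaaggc
Ccnb1: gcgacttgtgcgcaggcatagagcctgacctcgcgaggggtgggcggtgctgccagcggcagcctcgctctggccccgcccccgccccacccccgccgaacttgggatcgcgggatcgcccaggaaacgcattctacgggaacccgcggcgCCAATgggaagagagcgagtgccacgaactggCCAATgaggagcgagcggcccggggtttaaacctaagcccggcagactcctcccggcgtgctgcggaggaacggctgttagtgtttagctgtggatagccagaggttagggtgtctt

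A CHR match was present in 25 of the 32 genes (78.1%), against 20.2% of all 27025 genes with a RefSeq window and 12.9% of a list of DNA replication genes. In 22 of the 25 genes a match lay within 50 bases of the annotated start. The genes with no CHR match were Birc5, Bub1, Ccnb1, Cenpe, Mad2l1, Nuf2 and Nusap1. In a list of further mitosis genes the share with a CHR match was 50.9%. CCAAT was found in 25 of the 32 genes, 78.1% against 41.1% of all genes, and 22 genes held both. A match is a string of letters and does not show that a factor bound.

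**Figure D1:**
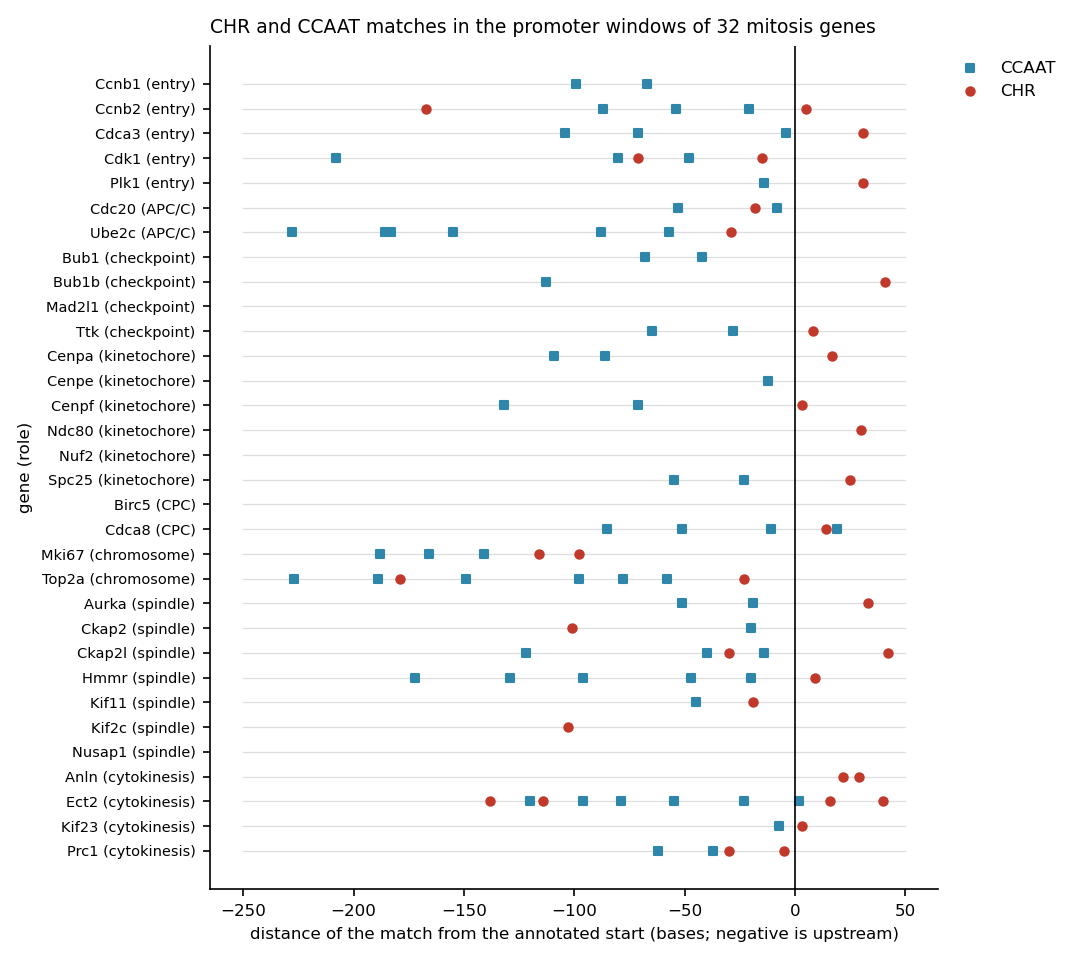
Position of every CHR match (circles) and CCAAT match (squares) relative to the annotated start of 32 mitosis genes, in bases, both strands; Ect2 and Prc1 have 2 windows each, so their matches appear once per window. Of 25 genes with a CHR match, 22 have one within 50 bases of the start, and Birc5, Mad2l1, Nuf2 and Nusap1 show neither motif.

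In LSK cells the mitosis genes differed between series of libraries. The number before the point in each LSK title (19, 20, 21, 22 or 24) splits the 23 libraries into 5 title series of 6, 3, 6, 5 and 3 libraries, and the labels do not say what that number marks. Single LSK libraries are called here by their titles, in which HT stands for HET. Per library, the 36 genes summed to 3122 to 3649 CPM in series 19, 3877 to 4175 CPM in series 20, 4240 to 4950 CPM in series 21, 5647 to 8184 CPM in series 22 and 6236 to 8282 CPM in series 24. None of these 5 ranges overlapped its neighbour except those of series 22 and 24. Each series held KO and HET libraries, and all but series 20 held WT. The members and the title series split were chosen with earlier results of these data known. The non-overlap shares, calls and p-values by series below therefore describe this difference and are not independent support for it.

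**Figure D2:**
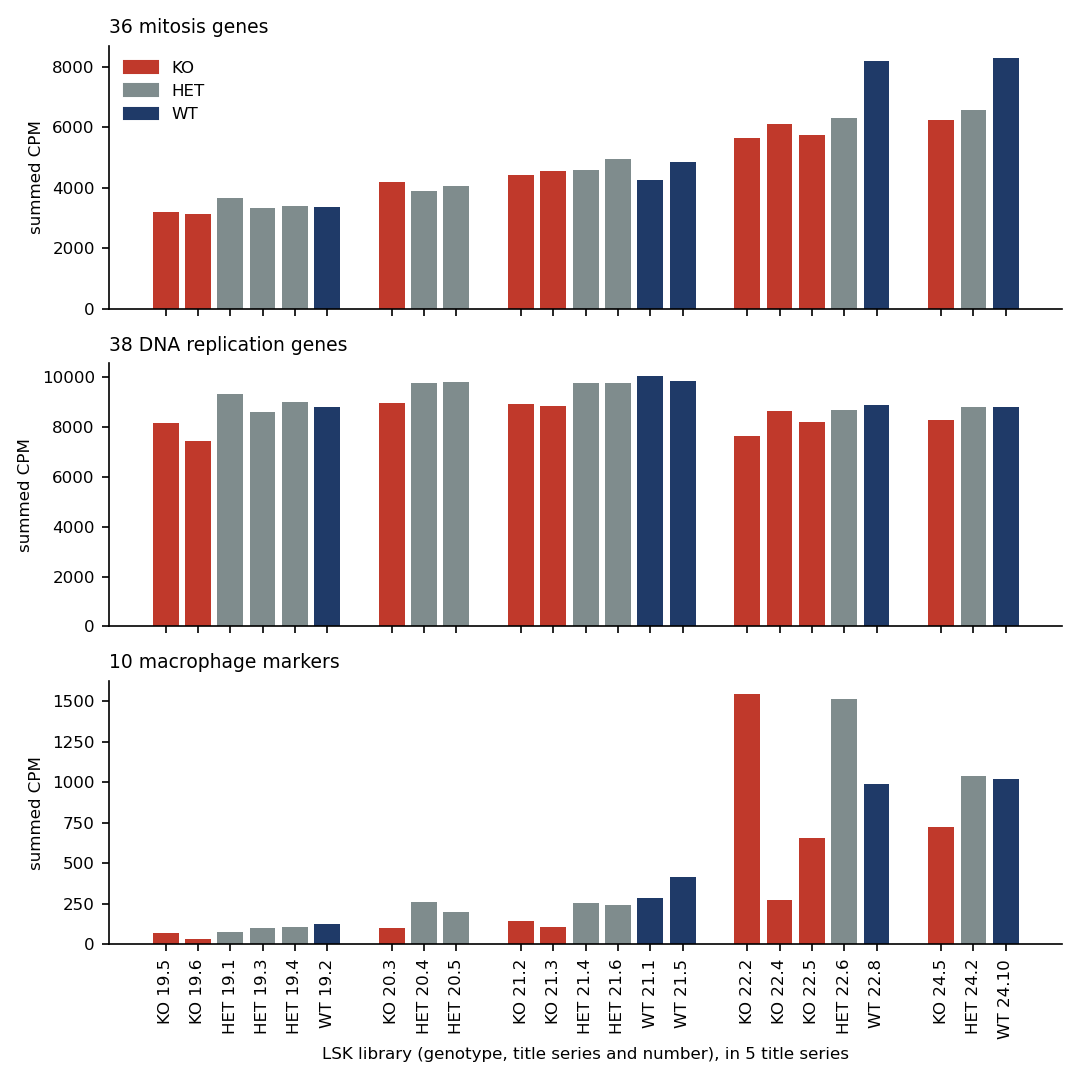
Summed CPM of the 36 mitosis genes (top), 38 DNA replication genes (middle) and 10 macrophage markers (bottom) in each LSK library, 1 bar per library coloured by genotype, grouped by title series. The mitosis sum is 3122 to 3649 in series 19 and at least 5647 in series 22 and 24, while the replication sum spans 7446 to 10057 over all series.

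Hmmr, a spindle protein first known as a hyaluronan receptor, had the smallest p of the members. Its lowest, median and highest levels were 40.0, 45.7 and 51.3 CPM in series 19, 51.9, 63.4 and 71.0 CPM in series 20, 65.0, 67.7 and 80.1 CPM in series 21, 110, 122 and 161 CPM in series 22, and 126, 134 and 189 CPM in series 24. Every library of series 22 and 24 was above every library of the other 3. Bub1, the checkpoint kinase at kinetochores, ran from 93.7 to 108 CPM in series 19 and from 204 to 281 CPM over series 22 and 24. Ube2c, the ubiquitin-conjugating enzyme of the anaphase-promoting complex, averaged 122 ± 41.8 CPM in series 22 (SD, n = 5), against 36.5 ± 4.18 CPM in series 19 (SD, n = 6). Plk1, the polo-like kinase of mitotic entry, averaged 71.6 ± 16.7 CPM in series 22 (SD, n = 5), against 27.0 ± 1.63 CPM in series 19 (SD, n = 6). All 3 were higher in series 22 than in any library of series 19. In 30 of the 36 genes every library of series 22 was above every library of series 19, against 2.9% of all genes. The 6 genes whose libraries overlapped were Ccnb2, Mki67, Cenpa, Spc24, Mad2l1 and Ckap2. Ccnb2, which encodes cyclin B2, had 148 to 222 CPM in series 22 and 114 to 167 CPM in series 19.

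A test of any difference among the 5 series, with genotype in the model, called 35 of the 36 genes at an adjusted p under 0.05 (edgeR's quasi-likelihood test, Benjamini-Hochberg over all genes), against 11.9% of the 13878 genes tested. The adjusted p was 1.94e-10 for Hmmr, 7.44e-10 for Bub1 and 1.82e-08 for Plk1, while Ccnb2 missed the threshold (adjusted p = 0.0709). The mean level of a gene in series 22 was 1.18 to 3.34 times that in series 19 (median 1.86), with Ube2c at the top. For series 24 over series 19 the ratio was 1.19 to 3.94 (median 2.07), led by Nusap1, which bundles microtubules around chromosomes. In 19 of the 36 genes (52.8%) every library of series 22 and 24 lay above every library of series 19, 20 and 21, against 0.677% of all genes.

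Each series was also set against the mean of the other 4. Series 19 was lower in 34 genes, all but Ccnb2 and Cenpa, against 4.09% of all genes called lower there and 6.25% in either direction, with a median log2 difference of -0.65 over the members and 0.01 over all genes. The entry genes Plk1 (-1.01 ± 0.10, SE) and Ccnb1 (-0.79 ± 0.09), the midzone protein gene Prc1 (-1.13 ± 0.10) and the motor gene Kif11 (-1.04 ± 0.10) were lower in series 19, with adjusted p of 3.75e-07, 1.14e-06, 2.73e-08 and 5.47e-07 (edgeR). Series 22 was higher in 33 genes, against 4.58% of all genes called higher and 5.57% in either direction, and series 24 in 31, against 2.31% and 2.74%. The genes not called were Ccnb2, Mki67 and Ckap2 in series 22, and Ccnb2, Mad2l1, Spc24, Cenpa and Ckap2 in series 24. The members' median log2 difference was 0.49 in series 22 and 0.61 in series 24. By role, the 8 spindle genes had a median of -0.87 in series 19, 0.70 in series 22 and 0.78 in series 24, and Cdc20 with Ube2c one of -0.81, 0.78 and 0.70. The 7 kinetochore genes had -0.53, 0.44 and 0.52, and the 4 checkpoint genes -0.55, 0.39 and 0.49. Every role thus lay on the same side of 0 in each of these series.

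Series 20 and 21 lay between. Series 20 was lower in 8 genes (Bub1, Ccnb1, Ube2c, Cenpe, Nusap1, Hmmr, Kif11 and Aurka), against 1.05% of all genes called lower and 2.62% in either direction, with a median log2 difference of -0.32 over the members. This count rests on 3 libraries: it was 0 without HT20.4 (31 genes called in all) and 2 without HT20.5 (252 genes). Series 21 was lower in 2 genes, Ccnb1 (-0.44 ± 0.09, adjusted p = 0.0069, edgeR) and Hmmr (-0.33 ± 0.08, adjusted p = 0.032), against 0.915% of all genes called lower and 1.44% in either direction. That count was 4 without KO22.5 (204 genes called in all). It was 1 when HT20.5, HT21.4, KO21.2, WT21.1, WT21.5, WT22.8 or WT24.10 was left out (124 to 189 genes).

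**Figure D3:**
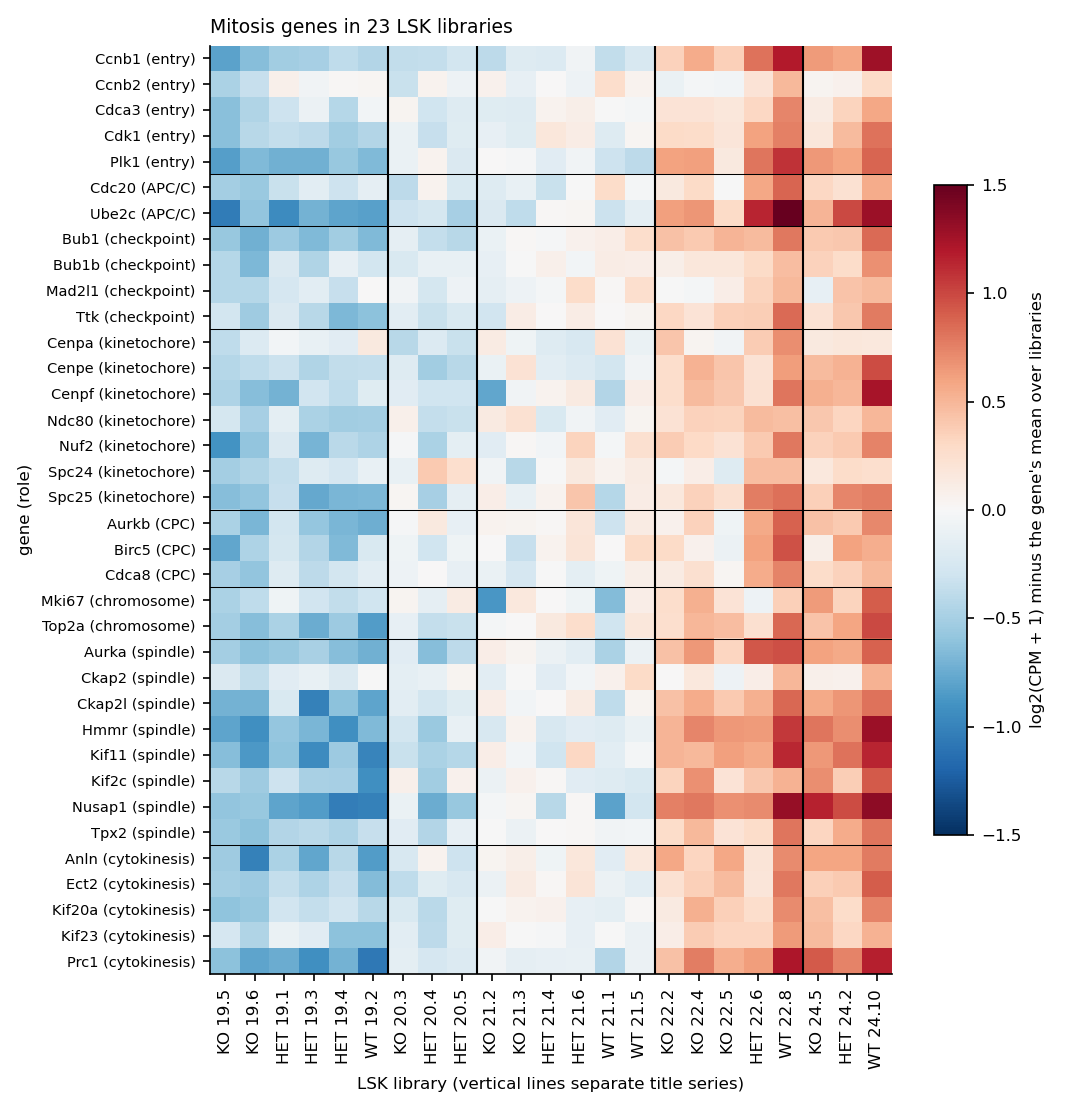
Each mitosis gene in each LSK library as log2(CPM + 1) minus that gene's mean over the 23 libraries (colour scale from -1.5 to 1.5), genes ordered by role, libraries by title series and then genotype. Series 19 lies mostly below the mean and series 22 and 24 above it, while Ccnb2 has the smallest ratio of series 22 to series 19, 1.18.

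The genes followed each other closely across LSK libraries. Spearman's rho of a gene with the summed CPM of the other 35 had a median of 0.924 over the 36 genes in 23 libraries, from 0.47 for Ccnb2 to 0.973 for Kif11, and was over 0.8 in 31 genes. These libraries share their title series, so the values describe the spread above and are not a separate result. Per base of exon, mean levels in LSK cells ranged from 104 ± 15.2 RPKM (SD, n = 23; reads per kilobase of exon and library size) for Ccnb2 and 75.2 ± 27.2 RPKM for Top2a, the topoisomerase that untangles chromosomes, to 3.41 ± 1.35 RPKM for Cenpf, a large kinetochore protein. Ccnb2 had the highest mean RPKM of the members in all 4 populations.

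Further mitosis genes and condensin genes changed with the series as well. In a list of 67 further mitosis genes, 54 (80.6%) were called in the test of any difference, against 11.9% of all genes. In that list 56 were lower in series 19, 44 higher in series 22 and 36 higher in series 24. The shares of all genes called in these directions were 4.09%, 4.58% and 2.31%. Among those lower in series 19 were Incenp (log2 difference -0.75 ± 0.07), the scaffold of the passenger complex, Espl1 (-0.86 ± 0.09), the protease that cuts cohesin, and Racgap1 (-0.78 ± 0.08), a partner of Kif23 and Ect2 in cytokinesis. Of 8 condensin genes 6 (75%) were called in the test of any difference, with Ncapg (-0.69 ± 0.08), Smc4 (-0.55 ± 0.09) and Smc2 (-0.43 ± 0.07) lower in series 19. Of 14 genes for late cell cycle transcription factors 2 were called (14.3%, near the 11.9% of all genes), Foxm1 and Tfdp1. Foxm1, an activator of G2 genes that is itself cell cycle regulated, was lower in series 19 (-0.70 ± 0.09, adjusted p = 1.21e-05, edgeR). Lin9 of the MuvB core and Rbl1 were also lower in series 19. Of 17 subunits and regulators of the anaphase-promoting complex 2 were called (11.8%), Fbxo5 and Fzr1, of 5 CDK inhibitors 0 (edgeR), and of 10 housekeeping genes 1 (10%). None of these lists exceeded the share of all genes.

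DNA replication genes did not follow the same order. Of 38 such genes 12 were called among the series (31.6%, against 11.9% of all genes), including Mcm2, Mcm3, Mcm4, Mcm5, Mcm7 and Cdt1 of origin licensing. In series 19, 5 were lower (Mcm10, Tk1, Rrm2, Pola1 and Rfc5, by 0.20 to 0.29 on the log2 scale), in series 20, 5 were higher, and in series 24 none was called. Their sum averaged 8414 ± 495 CPM in series 22 (SD, n = 5) and 8560 ± 675 CPM in series 19 (SD, n = 6), while the mitosis sum averaged 6397 ± 1036 CPM in series 22 and 3345 ± 182 CPM in series 19.

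Macrophage transcripts changed in the same direction as the mitosis genes. All 9 tested of the 10 macrophage genes were called among the series, 8 of them lower in series 19, 8 higher in series 22 and 9 higher in series 24. The sum of the 10 was 274 to 1547 CPM in series 22 and 724 to 1038 CPM in series 24, against 33.8 to 128 CPM in series 19, 101 to 261 CPM in series 20 and 104 to 414 CPM in series 21. Mrc1, C1qb and Adgre1 made up most of it, with medians of 421, 194 and 143 CPM in series 22. The 2 sums did not keep the same order in every library, since KO22.4 had a macrophage sum of 274 CPM with a mitosis sum of 6112 CPM and WT21.5 one of 414 CPM with 4839 CPM. With the log2 macrophage sum added to the model, 16 of the 36 genes (44.4%) were called for any difference, against 1.86% of all genes. In that model 20 members were lower in series 19, 4 lower in series 20, 9 higher in series 22 and 18 higher in series 24, while the genes called in either direction numbered 60, 24, 20 and 54 in all. The members' median log2 difference in it was -0.90 in series 19, -0.40 in series 20, 0.70 in series 22 and 0.83 in series 24. Without the covariate the medians were -0.65, -0.32, 0.49 and 0.61. Cd5l and Timd4, markers of resident macrophages, were at medians of at most 3.46 and 4.02 CPM in every series. The macrophage sum itself differed with the title series, so a model that holds both cannot separate them, and no conclusion is drawn from it. A level in bulk RNA does not separate fewer cells of a type from less RNA per cell. The part of other cell types in the mitosis result was not tested. Of 15 erythroid genes tested 7 (46.7%) were called, and of 7 granulocyte-macrophage genes tested 6 (85.7%), against 11.9% of all genes. The erythroid sum of 9377 CPM in series 24 came from HT24.2 alone, while KO24.5 and WT24.10 had 755 and 1150 CPM. The granulocyte-macrophage sums were 730 to 1539 CPM over all LSK libraries.

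The next question was whether LSK cells without Smarcd2 expressed the mitosis genes at another level. In the fit with genotype alone, 3 of the 36 were lower in KO than in WT, Ccnb2, Ckap2 and Mad2l1, against 9.28% of all genes called lower and 18.8% called in either direction. Ccnb2 averaged 144 ± 18.4 CPM in KO (SD, n = 9) and 186 ± 24.9 CPM in WT (SD, n = 5), a log2 fold change of -0.38 ± 0.09 (SE, adjusted p = 0.00337, edgeR). Its range was 114 to 165 CPM in KO, with a median of 148 CPM, while the 5 WT libraries had 161, 190, 164, 222 and 193 CPM, so that the groups overlapped. Ckap2, a spindle protein, had 63.4 to 91.7 CPM in KO (median 78.2), against 82.4, 86.3, 101, 117 and 119 CPM in WT, a log2 fold change of -0.37 ± 0.09 (adjusted p = 0.0058, edgeR). Mad2l1, the checkpoint protein that binds Cdc20, had 140 to 203 CPM in KO (median 180), against 190, 192, 226, 265 and 263 CPM in WT, a log2 fold change of -0.39 ± 0.12 (adjusted p = 0.0279, edgeR). Each of the 3 genes had its highest WT values in series 22 and 24.

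The members as a whole had a median log2 fold change of -0.29 in KO against WT, with 34 of 36 below 0, and 0.01 over all genes. Their standard errors were wide (median 0.23), and 8 had an unadjusted p under 0.05. Ccnb2, Ckap2 and Mad2l1 were among the 5 members with the largest p for a difference between title series. No member separated all KO from all WT libraries, as 2.77% of all genes did by being higher and 4.01% by being lower in KO. Cdc20, which activates the anaphase-promoting complex, had a log2 fold change of -0.44 ± 0.18 (adjusted p = 0.0893, edgeR), and Birc5, the passenger protein survivin, one of -0.49 ± 0.22 (adjusted p = 0.118).

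With the title series as a block, KO and WT libraries were in effect compared within series, and 17 of the 36 genes were lower in KO, against 10.8% of all genes called lower and 21.8% in either direction. They included the entry genes Cdk1, Ccnb1, Ccnb2 and Cdca3, the passenger genes Birc5 and Cdca8, the checkpoint genes Bub1, Bub1b and Mad2l1, and both Cdc20 and Ube2c. They also included Spc24, Nuf2, Cenpf and Cenpa of the kinetochore and Tpx2 and Ckap2 of the spindle, and none of the 5 cytokinesis genes. Cdc20 changed by -0.45 ± 0.09 on the log2 scale (adjusted p = 0.000655, edgeR), Birc5 by -0.46 ± 0.10 (adjusted p = 0.00238) and Ccnb1 by -0.39 ± 0.10 (adjusted p = 0.00599). Cdc20 had 76.2 and 73.5 CPM in the KO libraries of series 19, against 99.0 CPM in its WT library. In series 22 it had 120, 133 and 108 CPM in KO, against 199 CPM in WT. In series 24 it had 135 CPM in KO and 160 CPM in WT, and in series 21 it had 95.2 and 101 CPM in KO, against 132 and 107 CPM in WT. Cdc20 was thus lower in KO in all 4 series that held WT.

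For most members that within-series difference came from 2 of the 4 series. The median log2 ratio of KO to WT over the members was -0.08 in series 19 and 0.01 in series 21, and it was -0.49 in series 22 and -0.37 in series 24, each with all 36 genes below 0. Series 22 and 24 each held 1 WT library, both female, with the highest mitosis sums of all LSK libraries (8184 and 8282 CPM). HET was also below those 2 libraries, with a median log2 ratio of -0.36 in series 22 and -0.33 in series 24. Without WT22.8 the block fit called 8 members (1732 genes in all), and without WT24.10 or without KO24.5 it called 11 (2682 and 2480 genes). Without both WT libraries it called 6 members, of which 5 were lower and 1 higher in KO, and 1263 genes in all. The members' median log2 fold change was then -0.0031, against -0.23 in the full block fit, which called 3032 genes in all. Of the 9 macrophage genes tested, 5 were lower in KO under the same block (Folr2, C1qb, C1qc, Mrc1, Timd4), and their part in the result was not tested. In the fit with genotype alone 1 of the 9 was lower, Folr2. The LSK gate genes Flt3, Meis1 and Kit were higher in KO in both fits.

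**Figure D4:**
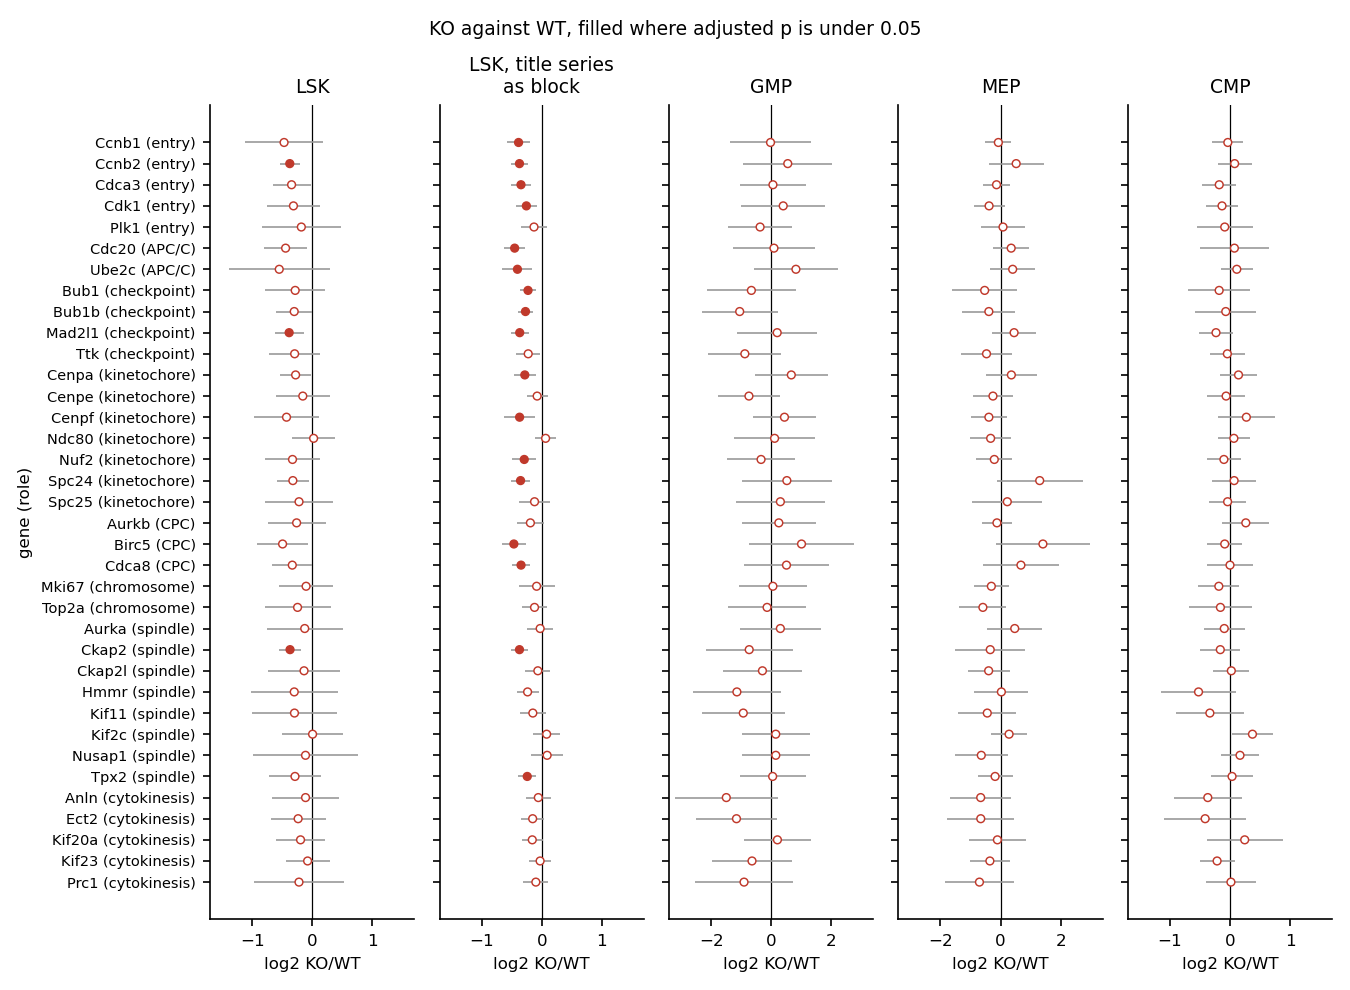
Log2 fold change of KO against WT for each mitosis gene, with 95% intervals, in LSK, in LSK with the title series as a block, and in GMP, MEP and CMP; filled points have an adjusted p under 0.05, and the GMP and MEP axes are wider. Filled points are 3 in LSK and 17 with the block, all below 0, and there are none in the other panels.

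Heterozygous LSK cells gave fewer calls. KO against HET called none of the members in the fit with genotype alone (11.1% of all genes, 2 members at an unadjusted p under 0.05, none with DESeq2 or limma), with a median log2 fold change of 0.10. With the title series as a block, 5 were lower in KO, against 7.1% of all genes called lower and 14.8% in either direction: Spc24 (-0.31 ± 0.07, adjusted p = 0.00227, edgeR), Ccnb2 (-0.24 ± 0.06, adjusted p = 0.0121), Mad2l1, Cdca8 and Birc5. This count was 2 without HT22.6 (1441 genes called in all) or KO19.5 (1534 genes), and 3 without HT21.6 (1692 genes). Under the same block 6 of 9 macrophage genes and 6 of 15 erythroid genes were lower in KO than in HET, among them C1qa, C1qb, Klf1 and Alas2, and their part in the result was not tested. HET against WT called none (edgeR; 0.00721% of all genes, 4 members at an unadjusted p under 0.05, none with DESeq2 or limma). All 36 were below 0 in that contrast, with a median of -0.34, and WT22.8 and WT24.10 enter it too. The 3 comparisons share libraries, so they are not separate evidence.

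Other cell cycle genes were examined in KO against WT. Of the 67 further mitosis genes 6 were lower (Trip13, Cenpw, Cenpn, Ccna2, Cks1b and Mastl), 8.96% of the list against 9.28% of all genes. With the title series as a block 20 were lower, 29.9% against 10.8%, with Ccna2, the cyclin of S phase and G2, at -0.61 ± 0.09 and Nek2, a centrosomal kinase, at -0.57 ± 0.10. Of 38 replication genes 10 were lower (26.3%), among them Rrm2 (-0.55 ± 0.10), Ccne1 (-0.62 ± 0.12) and Pcna (-0.38 ± 0.08), and 12 with the block (31.6%). Cdkn1a, which encodes the CDK inhibitor p21, was higher in KO (1.36 ± 0.28, adjusted p = 0.0017, edgeR). Of the regulators of late cell cycle transcription, Lin37, a subunit of MuvB, was higher (0.39 ± 0.13) and E2f4 lower (-0.30 ± 0.11). Of 10 housekeeping genes 3 were lower.

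In CMP, GMP and MEP no mitosis gene was called between genotypes. Of all genes, KO against WT called 1.84% for CMP, 0.204% for GMP and 0.00856% for MEP, whereas KO against HET called 2.19%, 0.261% and 0.0171%. HET against WT called 0% of all genes in each of them (edgeR), with 2 members at an unadjusted p under 0.05 in CMP and none in GMP or MEP. For KO against WT the members at an unadjusted p under 0.05 numbered 1 in CMP and 0 in GMP and MEP, and for KO against HET 5, 1 and 0. DESeq2 and limma called none for KO against WT. For KO against HET they called 1 each in CMP, with 449 and 663 genes called in all, and none in GMP or MEP. Titles of these libraries carry M32, M33 or M34, and M34 holds KO libraries only: 2 of the 4 in CMP, 2 of the 3 in GMP and 2 of the 4 in MEP. With this number as a block no member was called for any genotype contrast in CMP, GMP or MEP (edgeR), but KO was then set against WT through 2 KO libraries in CMP and MEP and 1 in GMP. For M34 libraries, title series and genotype cannot be told apart. KO against HET also called no member without HET 8 in any of the 3 populations (edgeR). For HET against WT in GMP, limma with quality weights called 24 members, 6 higher and 18 lower in HET, along with 6435 genes in all.

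CMP gave the tightest comparison, with a median standard error of 0.17 for KO against WT on the log2 scale. This was still large beside the members' median of -0.29 in LSK, so that a change of that size could also be missed in CMP. Cdk1 had 291, 315, 292 and 318 CPM in CMP KO, against 364, 294 and 341 CPM in CMP WT, and its 95% interval for the log2 fold change was -0.40 to 0.14. The groups overlapped, and so did those of Ccnb1, whose interval was -0.29 to 0.22. Kif2c, a kinesin that depolymerises microtubules, had 74.8, 75.6, 80.6 and 97.2 CPM in CMP KO, against 54.0, 71.8 and 64.9 CPM in CMP WT, so that all KO libraries were above all WT libraries. Its log2 fold change was 0.38 ± 0.18 (adjusted p = 0.386, edgeR). Aurkb also lay higher and Cdca3 lower in every CMP KO library, 2 of 36 members and 1 of 36, against 8.97% and 7.56% of all genes. Against HET, Ckap2l, Kif2c and Ndc80 were higher in every CMP KO library, 8.33% of the members against 2.09% of all genes. In HET against WT, Ckap2l and Ndc80 were lower in every CMP HET library, 5.56% of the members against 0.746% of all genes. The lowest HET library for all 3 genes was HET 8. The separations rest instead on the highest HET libraries, HET 3 for Ckap2l (95.5 CPM) and Ndc80 (85.4 CPM) and HET 9 for Kif2c (71.7 CPM). Outside the members, Cdkn1a was higher in KO than in WT in CMP (1.92 ± 0.25, adjusted p = 0.000297, edgeR) and in GMP (2.58 ± 0.48, adjusted p = 0.0285). With the title series as a block the value was 1.42 ± 0.22 in CMP (adjusted p = 0.00361) and 2.66 ± 0.63 in GMP (adjusted p = 0.103), so that the GMP call was lost. Ccne2 and Rrm2 were lower in CMP KO, with adjusted p of 0.0554 and 0.24 under that block (edgeR). The gate genes Ctsg and Elane were lower in CMP KO in both fits, and Flt3 and Meis1 were higher in the fit with genotype alone (adjusted p of 0.114 and 0.161 with the block, edgeR), and their part in the mitosis values was not tested.

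GMP and MEP did not have the precision to show a change of the size seen in LSK. The median standard error of the members for KO against WT was 0.68 in GMP and 0.42 in MEP. In GMP, Cdc20 had 354, 239 and 340 CPM in KO, against 149, 338 and 386 CPM in WT, and its 95% interval was -1.27 to 1.46. Top2a had 329, 286 and 283 CPM in GMP KO, against 469, 266 and 252 CPM in GMP WT, with an interval of -1.43 to 1.16. Both genes overlapped between genotypes. Cenpe, a kinetochore motor, and Ttk, the checkpoint kinase MPS1, were lower in all 3 GMP KO libraries than in all 3 WT libraries, 5.56% of the members against 8.36% of all genes. Aurkb was higher in all 3 GMP KO libraries (278 to 292 CPM) than in all 7 HET libraries (29.2 to 266 CPM), 2.78% of the members against 1.39% of all genes. Once the spike-in share was in the model, 12 members (33.3%) were called lower in KO than in WT and 5 (13.9%) lower than in HET, against 13.9% and 9.77% of all genes called in either direction. That share was 2.52% to 3.06% in the KO libraries and no more than 0.394% in the others, so that in GMP it cannot be told apart from the genotype.

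In MEP, Cdk1 had 239, 232, 242 and 127 CPM in KO, against 306, 282 and 233 CPM in WT, with a 95% interval of -0.90 to 0.14. The value of 127 CPM belonged to KO 15, and the groups overlapped. Birc5 had 163, 235, 232 and 1945 CPM in MEP KO, against 305, 220 and 200 CPM in MEP WT, with an interval of -0.14 to 2.97. KO 15 again stood alone, while the other KO libraries had at most 235 CPM. Without KO 15 the log2 fold change of KO against WT was -0.18 for Birc5, against 1.41 with it, and -0.18 for Cdk1, against -0.38 with it. Prc1 was lower in all 4 KO libraries than in all 3 WT libraries, 2.78% of the members against 5.96% of all genes.

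The difference of the KO effect between populations was tested directly in a joint fit of the 41 CMP, GMP and MEP libraries. No member was called for GMP minus MEP, GMP minus CMP or MEP minus CMP, against 0.414%, 0.0169% and 0% of all genes (edgeR; DESeq2 and limma also called no member). With the spike-in share in that model, 12 members (33.3%) were called lower for GMP minus MEP, against 29% of all genes called in either direction.

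Some mitosis genes were called between the myeloid populations, not all in 1 direction. GMP against CMP called 18 members (50%), against 35.4% of all genes. In GMP against MEP and in MEP against CMP the share of members called was below that of all genes. Spc24 and Ndc80, subunits of the NDC80 complex that grips microtubules, were higher in GMP by 1.34 ± 0.33 and 0.97 ± 0.22 on the log2 scale (adjusted p = 0.00233 and 0.00154, edgeR). The passenger genes Birc5 (1.28 ± 0.37), Cdca8 (1.07 ± 0.30) and Aurkb (0.67 ± 0.19) were all higher in GMP, as were Aurka (0.93 ± 0.24), Cdc20 (0.85 ± 0.24) and Kif2c (0.73 ± 0.19). Ccnb1, Ccnb2, Cdk1, Spc25, Cenpa and Nusap1 were the others that were higher. Hmmr (-0.84 ± 0.30), Kif11 (-0.83 ± 0.29), Bub1b (-0.79 ± 0.26) and Cenpe (-0.65 ± 0.19) were lower in GMP.

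On the joint scale, Cdc20 had a lowest, median and highest level of 32.8, 260 and 447 CPM in GMP, and of 47.3, 168 and 203 CPM in CMP. Ndc80 had 21.9, 148 and 280 CPM in GMP, and 56.7, 81.0 and 92.0 CPM in CMP. Hmmr had 18.1, 37.8 and 132 CPM in GMP, and 32.6, 90.8 and 106 CPM in CMP. In all 3 the range over GMP libraries took in the whole CMP range. The 36 genes summed to 6546 ± 2105 CPM in GMP (SD, n = 13), 5694 ± 1045 CPM in MEP (SD, n = 14) and 5140 ± 490 CPM in CMP (SD, n = 14), so that these sums overlapped.

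GMP against MEP called 11 members (30.6%), against 35.6% of all genes. Aurka (1.07 ± 0.24), Ndc80 (1.01 ± 0.23), Aurkb (0.98 ± 0.19), Cdk1 (0.84 ± 0.21), Nusap1, Kif2c, Ckap2l and Cdc20 were higher in GMP, and Hmmr (-0.91 ± 0.31), Kif11 (-0.82 ± 0.29) and Bub1b (-0.77 ± 0.26) were lower. MEP against CMP called 1 member (2.78%), against 19% of all genes in either direction and 8.74% called higher. It was Mki67, which coats mitotic chromosomes and was higher in MEP (0.55 ± 0.17, adjusted p = 0.0205, edgeR). Mki67 had a lowest, median and highest level of 228, 284 and 465 CPM in MEP and of 176, 206 and 288 CPM in CMP. That call was lost without CMP WT 5, MEP WT 5 or MEP KO 15.

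These population counts moved with the libraries and with transcript length. For GMP against CMP the count was 11 without GMP WT 5 (2848 genes called in all) or without GMP WT 12 (2797 genes). It was 26 without GMP HET 8 (45.9% of all genes), and 28 without HET 8 in all 3 populations and MEP KO 15 (55.5% of all genes). For GMP against MEP it was 7 without GMP WT 12 (3469 genes called in all) and 18 without GMP HET 8 (42.6% of all genes). It was 27 without HET 8 and MEP KO 15 (59.1% of all genes). Within WT libraries alone and within HET libraries alone no member was called in any of the 3 comparisons. Genes called in all, in WT and in HET, were then 122 and 663 for GMP against CMP. They were 367 and 1212 for MEP against CMP, and 822 and 2097 for GMP against MEP. With the transcript length index as a covariate, GMP against CMP called 3 members (8.33%), against 22.3% of all genes. GMP against MEP then called 11 (30.6%), against 45.9% of all genes. With the spike-in share these comparisons called 0 and 3 members (0% and 8.33%), against 14.5% and 34.9% of all genes.

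The length index of a library was the median log2 level of genes whose longest coding transcript exceeds 5000 bases minus that of genes under 1500 bases, centred in each population. It ranged from -1.99 to 3.15 in GMP, -2.23 to 0.84 in MEP, -0.58 to 0.45 in CMP and -0.30 to 0.26 in LSK. Across the 13 GMP libraries, the 9 members with transcripts under 2000 bases (Aurka, Aurkb, Ccnb2, Cdc20, Cdca3, Cdca8, Cenpa, Spc24 and Spc25) had a median Spearman's rho with this index of -0.951. The median was -0.538 in MEP, -0.349 in CMP and -0.192 in LSK. For the 10 members with transcripts over 4000 bases it was 0.187 in GMP, 0.637 in MEP, 0.389 in CMP and 0.00247 in LSK. Spearman's rho of a member with the sum of the other 35 had a median of 0.511 in GMP, with 12 genes below 0, 0.246 in MEP, 0.352 in CMP and 0.924 in LSK. These are correlations over libraries that share depth and preparation, given as a description.

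**Figure D5:**
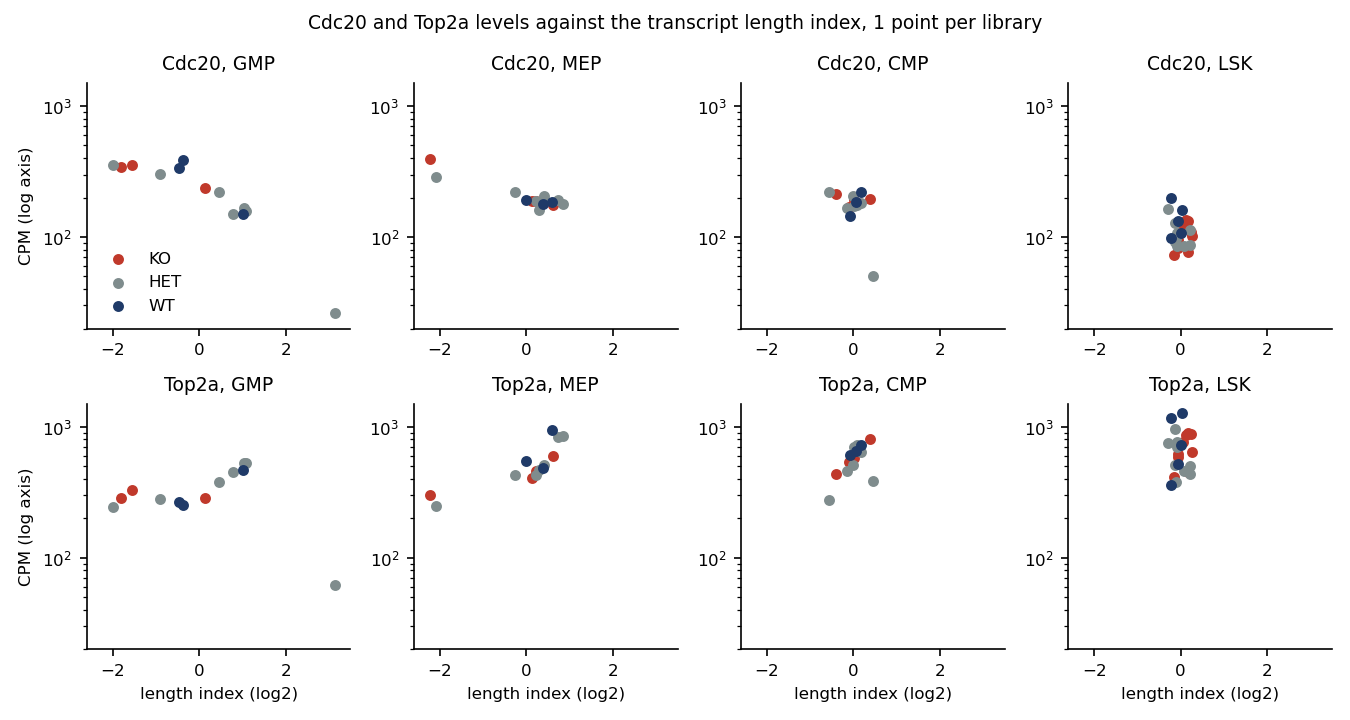
CPM of Cdc20 (top) and Top2a (bottom), on a log axis, against the transcript length index in GMP, MEP, CMP and LSK, 1 point per library coloured by genotype. In GMP the level of Cdc20, with a transcript of 1793 bases, is lower at a higher index (Spearman's rho -0.863, 13 libraries), whereas in LSK the index spans only -0.30 to 0.26.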

How the data were processed

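Full-length cDNA (Smart-seq2, no molecular identifiers, not strand-specific) was made from sorted cells, per the labels' protocols. The deposited files hold raw counts per gene, for which the submitters' processing notes list featureCounts and the build mm10 (GRCm38). Neither aligner nor annotation release is given in the sources used here. Spans of 16 members overlap another annotated gene, among them Cdc20 with Elovl1 and Ube2c with Tnnc2, and unstranded reads cannot be divided there. Gene names came from GENCODE M21.

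Genes passing filterByExpr (minimum count 10, total 15) were tested per population with edgeR 4.0.16 in R 4.3.3 (TMM, robust quasi-likelihood F test, Benjamini-Hochberg over all genes kept, threshold 0.05). All 36 members passed. A level is CPM on TMM-scaled library sizes, per population unless the joint scale is named. The SE is the absolute log2 fold change over the square root of F, and 95% intervals are approximate. Alternatives used DESeq2 1.42.0 and limma 3.58.1, and tests were checked on simulated data. Intervals cover the spread between libraries. The members, gene lists and title series split were chosen with earlier results of these data known. The text names members by role, by smallest adjusted p, and every member whose groups do not overlap.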

Additional observations from a re-analysis of the deposited data

Results flagged for a closer look

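Of 72 tests for a library far from the rest of its genotype, each on 1 mitosis gene or their sum, 13 found one. The tests share genes and libraries, so the 13 cannot be set against the 1 in 20 that chance gives for separate tests. In 8 of the 13 the library was HET 8, and in 4 MEP KO 15. CMP HET 8 had the lowest levels of its group: Cdk1 at 241.4 CPM (other HET libraries 291.7 to 316.2), Plk1 at 37.06 (94.63 to 119.5), Aurkb at 87.59 (171.7 to 190.5), Cdc20 at 50.53 (166.9 to 220.9) and the sum of the 36 genes at 3989 (5130 to 5834). GMP HET 8 had Plk1 at 20.46 CPM (101.8 to 151.2 in the others). MEP HET 8 was instead high, with Plk1 at 332.3 CPM (95.33 to 131.8) and Birc5 at 728.6 (171.2 to 254.3).

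MEP KO 15 had Birc5 at 1945 CPM (163.1 to 235.5 in the other KO libraries), Cdc20 at 393.6 (174.1 to 189.3), the sum of the 36 genes at 9479 (4974 to 5270) and Cdk1 at 127 (231.9 to 241.8). Its length index was -2.23, and that of MEP HET 8 was -2.08. MEP HET 1 had Ccnb1 at 306.6 CPM (200.1 to 239.1 in the other HET libraries).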

How the results depend on the processing

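Counts of members called kept within 1.5 times of the values above in 798 alternatives and moved further in 63, and for 76 calls of named members 2617 of 2857 alternatives kept the call. Why the others moved was not tested. Many of the 798 belong to contrasts that called 0 members and stayed at 0 when any 1 library was left out. The tally therefore does not measure how firm the calls are.

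In LSK, KO against WT gave 17 and KO against HET 5 with the title series as a block (21.8% and 14.8% of all genes). That block without both libraries WT22.8 and WT24.10 gave 6 for KO against WT, with 1263 genes called in all. Leaving out 1 library gave 8 to 17 and 2 to 7. Series 20 gave 18 with no count filter, 13 with DESeq2 and 17 with limma, where 941, 655 and 1029 genes were called in all, against 363 in the main fit. It gave 0 to 11 leaving out 1 library. Series 21 gave 8, 4 and 6 (633, 402 and 508 genes in all, against 200 in the main fit), and 1 to 4 leaving out 1 library. Its count was 1 with the spike-in share (159 genes), 1 without both WT libraries (114 genes) and 0 with no genotype term (95 genes). Leaving out 1 library gave 32 to 34 in series 19, 27 to 34 in series 22 and 22 to 32 in series 24. With the macrophage sum as covariate, an alternative chosen after seeing the data like those that drop 2 or more libraries, the counts were 16 for any difference and 20, 4, 9 and 18 in series 19, 20, 22 and 24, with 60, 24, 20 and 54 genes called in all and the members' median log2 differences at -0.90, -0.40, 0.70 and 0.83.

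In CMP, KO against HET gave 1 with DESeq2 and 1 with limma (449 and 663 genes called in all). In GMP, the spike-in share gave 12 for KO against WT and 5 for KO against HET (13.9% and 9.77% of all genes). Limma gave 24 for HET against WT there (52.6% of all genes). Limma gave 28, 11 and 19 for GMP against CMP, MEP against CMP and GMP against MEP, the spike-in share 0, 3 and 3, the length index 3 and 3 for the first 2, dropping HET 8 and MEP KO 15 28, 2 and 27, and WT or HET alone 0 each. Leaving out 1 library gave 11 to 26, 0 to 1 and 7 to 18. The KO effect in GMP minus MEP gave 12 with the spike-in share (29% of all genes). That covariate turned 9 log2 values, all in contrasts with GMP: Cdk1 -2.21 (KO against HET), Aurkb -2.08, Cdc20 -2.62 and Cdk1 -2.54 (KO against WT), Ccnb1 -0.16 and Cdk1 -0.22 (GMP against CMP), Cdc20 -0.037 (GMP against MEP), Aurkb -1.41 and Ccnb1 -1.84 (KO effect, GMP minus MEP).

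Fetus numbers recur across CMP, GMP and MEP titles, and the labels do not say that they mark 1 animal. Correlations of same-numbered deviations were over 0.1 in 9 of 13 pairs for GMP and CMP, 12 of 14 for MEP and CMP and 5 of 13 for GMP and MEP. With this number as a replicate block the counts were 16, 1 and 11 for GMP against CMP, MEP against CMP and GMP against MEP. The main fit gave 18, 1 and 11, with 35.4%, 19% and 35.6% of all genes called. The share of all genes under the block is not given here, so no conclusion is drawn from the block counts. Libraries matched their own number best in 5 of 13, 5 of 14 and 1 of 13.

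Depth was 1006090 reads or more per library, and the spread between GMP libraries limits what its contrasts can show (median SE 0.68 for KO against WT).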
